A study of Brachypodium distachyon with 214 samples.

Results

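The leaf transcriptome of droughted plants of Brachypodium distachyon Bd21 was compared with that of control plants of the same accession. Samples whose title named Bd21 were taken, which gave 97 of the 214 plants of the series, 49 under drought and 48 under control watering. Plants of the accession Bd3-1 were not used. Bd21 is an inbred line of this annual grass and the source of its reference genome, so reads were aligned to sequences of the same accession, and both groups carried the wild-type Bd21 genotype with no transgene. Drought meant that soil dried from day 33 after sowing to 55% of field capacity over 6 days, with field capacity the water content of a fully watered, drained pot. Control plants were watered nightly to 85%. Plants were grown in chambers set to 12 h days at 25 °C and 12 h nights at 20 °C, and whole leaf tissue of each plant gave 1 library. A lower level of a transcript in such bulk tissue can come from fewer cells of a type or from less RNA per cell, and these cannot be told apart.

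When soil dries, plants make the hormone abscisic acid, which closes stomata and switches on genes whose products protect cells from losing water. Its synthesis is limited by a dioxygenase that cleaves carotenoids, its breakdown starts with a hydroxylase, and its signal is held down by a family of protein phosphatases that the hormone's receptors block. Late embryogenesis abundant proteins and dehydrins are among the best-known products of this response, and transcripts for light harvesting often fall under water shortage. Genes are given by locus, and the digit that follows Bradi is the chromosome. Roles are those that the study's text gives for its loci, most of them from orthologs in Arabidopsis, and were not checked here, and loci without such a role are given by locus alone.

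The total count per library averaged 1.94 M (10 to the power 6 counts) ± 0.451 (SD, n = 49, 1.09 to 3.05 M) in drought and 2.11 M ± 1.01 (n = 48, 0.970 to 8.37 M) in control, and 1.98 M ± 0.412 in control without its deepest library, control replicate 10. The mean log2 total differed by -0.08 (drought minus control, 2-sided permutation p = 0.354). On average 20547 rows were above 0 per library in drought and 20465 in control (permutation p = 0.592). Plastid coding sequences took 7.34% ± 0.738 of the counts in drought and 7.78% ± 0.957 in control, a difference of -0.439 percentage points (permutation p = 0.0128, adjusted over 7 tests 0.0447). The difference was -0.395, -0.375, -0.590 and -0.433 in the 4 experiment batches of the study's sample sheet, taken here as growth batches. As a check of the labelled tissue, the chlorophyll a-b binding protein Bradi4g31257 was present in every library, from 60.0 to 207 normalized counts in drought and from 81.0 to 201 in control.

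Nearly every droughted plant stood apart from the controls. The first principal component of log2 counts held 7.5% of the variance and averaged 22.1 ± 12.7 (SD) in drought and -22.6 ± 9.29 in control, a difference of 44.7 (permutation p = 2e-05, the smallest that 100000 permutations give, adjusted p = 0.00014). Droughted plants ranged from -7.36 to 54.9 and control plants from -40.5 to -0.239, so 3 of 49 droughted plants lay within the range of the controls. The difference was 48.2, 52.7, 42.3 and 32.2 in growth batches 1 to 4. The second component held 4.19% of the variance, and its difference of 7.47 did not pass after adjustment (p = 0.0482, adjusted p = 0.113).

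Of 24615 genes tested with edgeR's quasi-likelihood test, 5837 (23.7%) passed a Benjamini-Hochberg adjusted p of 0.05, and they divided almost evenly. In drought 2919 genes (11.9%) rose and 2918 (11.9%) fell. Most changes were small: the median absolute log2 fold change of these genes was 0.39, and 3964 of them (67.9%) changed less than 1.5-fold. At least a 2-fold change was seen in 721 genes, 429 up (1.74% of those tested) and 292 down (1.19%), and at least a 4-fold change in 66 up and 19 down. Within growth batches 1 to 4 alone, with 14, 14, 10 and 11 droughted plants and 13, 14, 11 and 10 controls, 1979, 2768, 825 and 621 genes passed, and 1922, 2626, 819 and 608 of these were among the 5837, each with the same sign.

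Small changes were found mainly where counts were high. Counts were scaled by TMM (trimmed mean of M values) factors to a common library size, and in these normalized counts the median over tested genes of the mean per plant was 9.97. Of the 2520 genes with a mean of 100 or more, 50.9% passed the test and 0.952% changed at least 2-fold. Of the 4938 genes with a mean under 1, 7.33% passed and 5.53% changed at least 2-fold. The genes that rose took 16.9% of the normalized counts in drought and 12.7% in control. Those that fell took 25.7% in drought and 31.4% in control. The median log2 fold change over all tested genes was 0.01.

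**Figure D1:**
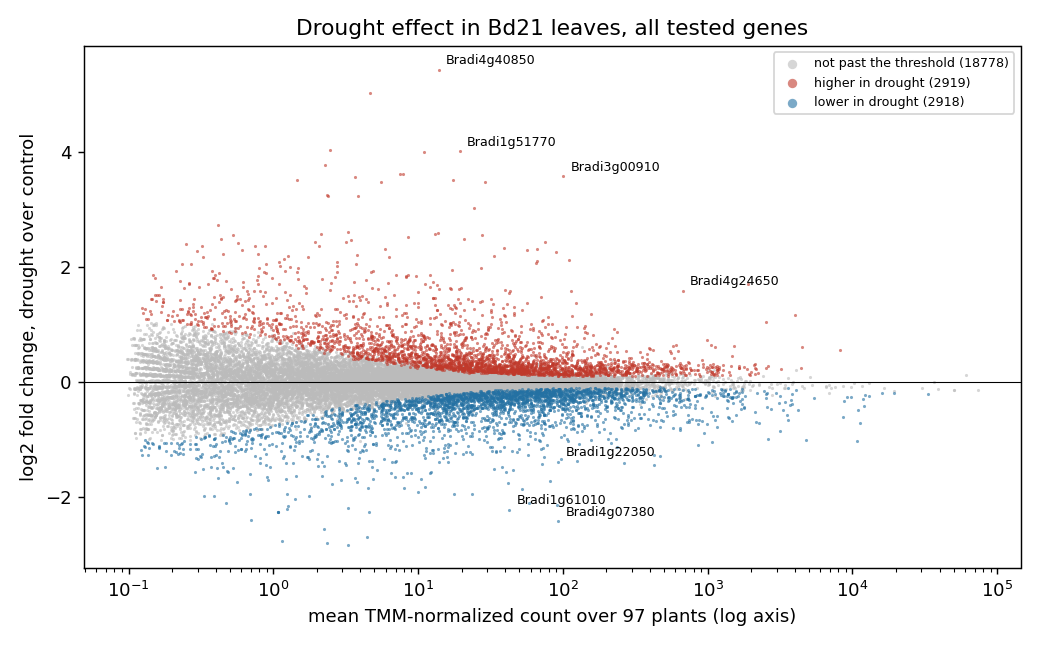
Log2 fold change of drought over control (vertical axis) against the mean TMM-normalized count over 97 plants (horizontal, log axis) for the 24615 tested genes, coloured by whether a gene was higher in drought (2919), lower (2918) or did not pass adjusted p 0.05. Called changes are small where counts are high, and among genes with a mean of 10 or more, Bradi4g40850 reached 5.44 at the top and Bradi4g07380 -2.43 at the bottom.

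Genes of abscisic acid synthesis, breakdown and signalling rose together. Of 13 loci that the study's text names in its account of a module with many abscisic acid genes, among them Bradi4g40850 and Bradi3g00920, to which it gives no role in the hormone's action, 12 rose, 1 fell and 0 were left uncalled, against 11.9% rising and 11.9% falling over all tested genes. Their median log2 fold change was 2.07, against 0.01 over all genes, and 10 rose at least 2-fold. The study chose these loci on the same plants, so their direction is not independent evidence. In each plant the mean log2 level of the 13 genes, set against its mean in controls, ran from 0.92 to 3.03 in drought with a median of 2.07, and from -0.38 to 0.38 in control. Every droughted plant lay above every control plant.

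The synthesis gene Bradi1g13760, an ortholog of the Arabidopsis carotenoid dioxygenase NCED2, separated the groups completely. It had 4.51, 18.2 and 58.6 normalized counts in the lowest, median and highest droughted plant, against 0, 1.15 and 4.31 in control plants. No control library held more than 3 counts of it. Measured against that floor of 3 counts per library, it averaged at least 6.19-fold higher in drought, and the fitted log2 fold change was 4.00 ± 0.20 (SE, adjusted p = 7.92e-34). Over all tested genes, 2 (0.00813%) had droughted plants that lay entirely above the controls, and 0 (0%) had droughted plants entirely below them.

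The hydroxylase gene Bradi3g52660, an ortholog of Arabidopsis CYP707A1 that acts in the breakdown of the hormone, also rose. It ranged from 40.0 to 180 normalized counts in drought with a median of 86.4, against 18.5 to 82.1 with a median of 47.4 in control. The ranges overlapped, and 47 of 49 droughted plants lay above the control median (log2 fold change 0.88 ± 0.09, adjusted p = 5.08e-15). Synthesis and breakdown genes were thus both higher in drought, by fitted folds of 16.0 and 1.85.

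Both phosphatase genes of the list rose. Bradi2g18510, an ortholog of Arabidopsis HAB1, which represses abscisic acid signalling, had 21.6, 57.6 and 99.4 normalized counts in the lowest, median and highest droughted plant, against 10.6, 20.0 and 32.4 in control plants (log2 fold change 1.6 ± 0.08, adjusted p = 8.68e-36). Its relative Bradi2g41950, an ortholog of HAB2, had 26.4, 53.1 and 86.1 in drought, against 8.34, 22.4 and 34.2 in control (1.29 ± 0.08, adjusted p = 4.42e-29). For each of them all 49 droughted plants lay above the control median, and 48 and 44 lay above the highest control plant.

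Transcription factors of the list followed. Bradi4g39520, an ortholog of the Arabidopsis repressor AITR3, ranged from 13.2 to 92.2 normalized counts in drought with a median of 44.4, against 0 to 16.0 with a median of 4.49 in control. Of the droughted plants, 48 of 49 lay above every control plant, and the log2 fold change was 3.04 ± 0.14 (adjusted p = 6.54e-38). Bradi3g50220, an ortholog of ATHB-7, a homeodomain factor induced by abscisic acid in Arabidopsis, ranged from 46.8 to 190 in drought and from 9.80 to 51.1 in control (2.07 ± 0.09, adjusted p = 1.74e-37). Its level is uncertain, since 96.9% of its estimates were not whole numbers, as arises where reads match more than 1 transcript. Bradi2g15940, an ortholog of the bZIP factor GBF2, ranged from 10.3 to 61.7 in drought and from 2.65 to 18.2 in control, with 36 of 49 droughted plants above every control (1.63 ± 0.11, adjusted p = 1.35e-24).

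The protective and stomatal genes showed the widest range of responses. Bradi1g51770, which encodes a late embryogenesis abundant protein, had 5.57, 34.5 and 87.2 normalized counts in the lowest, median and highest droughted plant, against 0, 1.77 and 12.1 in control plants. Of the droughted plants 46 lay above every control (log2 fold change 4.01 ± 0.20, adjusted p = 4.82e-34). Of the loci annotated with stomatal movement, Bradi3g39800 averaged 47.1 ± 25.0 (SD) in drought and 7.79 ± 4.27 in control (2.56 ± 0.15), and Bradi2g20660 averaged 31.5 ± 9.59 in drought and 19.5 ± 7.47 in control (0.69 ± 0.10). The wax biosynthesis locus Bradi2g23740 fell, with 68.6 ± 19.7 normalized counts in drought and 95.9 ± 25.8 in control (log2 fold change -0.49 ± 0.08, adjusted p = 1.36e-07).

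The locus with the largest rise, Bradi4g40850, has no known function. It held 131 counts in the highest droughted library and at most 3 in any control library, and it was at 0 in 2 of 49 droughted and 29 of 48 control libraries. Its normalized counts had a median of 16.8 and a highest value of 122 in drought, against a median of 0 and a highest value of 3.98 in control. Its mean in drought exceeded the floor by at least 8.21-fold, and the fitted log2 fold change was 5.44 ± 0.41 (adjusted p = 7.49e-22). Droughted plants differed widely in this gene: 39 of 49 lay above every control plant, and the others within the control range.

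**Figure D2:**
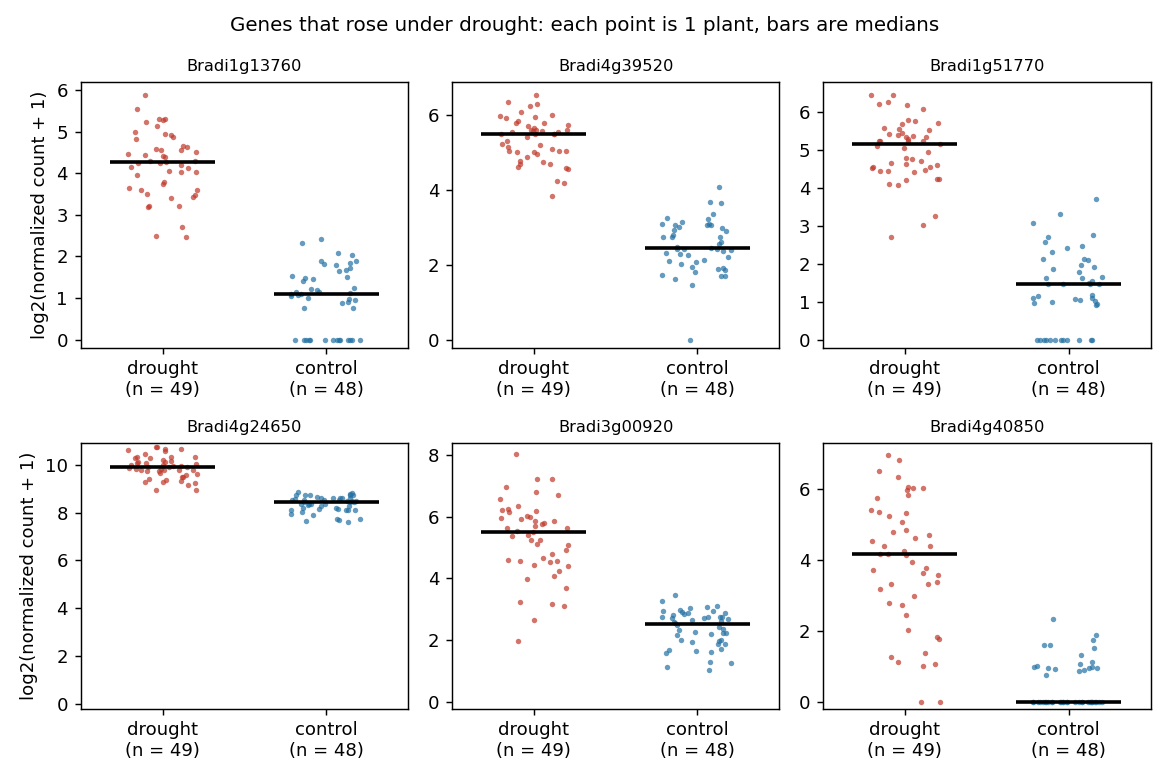
Each point is the log2(TMM-normalized count + 1) of 1 plant for 6 genes that rose, droughted plants (n = 49, red) left of control plants (n = 48, blue), with bars at the medians. The groups do not overlap for Bradi1g13760 and Bradi4g24650, and droughted plants are most spread out for Bradi4g40850.

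Dehydrin and water-response genes rose in all 4 loci that the text names, with log2 fold changes between 1.46 and 4.03. Over all tested genes 11.9% rose, and 1.74% rose at least 2-fold. The study chose this list on the same plants too. Bradi4g24650, an ortholog of the rice stress gene ASR5, was the most abundant of them, with 488, 957 and 1724 normalized counts in the lowest, median and highest droughted plant, against 194, 349 and 468 in control plants. It was the other gene whose groups did not overlap (log2 fold change 1.59 ± 0.08, adjusted p = 4.82e-34). Both orthologs of the Arabidopsis dehydrin RAB18 were close to 0 in control plants. Bradi1g37410 averaged 4.72 ± 5.51 in drought, at least 1.43-fold over the floor, and no control library held more than 2 counts. Bradi3g43870 averaged 4.28 ± 3.63, with no more than 3 counts in a control library and 45 of 49 droughted plants above the control median. Bradi1g44480, an ortholog of IAR4, averaged 19.0 ± 8.16 in drought and 6.90 ± 3.04 in control (1.46 ± 0.13).

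The remaining genes with the largest rises carry no role in the sources used here. Of these, Bradi2g45054 averaged 31.8 ± 18.9 normalized counts in drought and 2.68 ± 2.01 in control (log2 fold change 3.52 ± 0.19), and Bradi1g51245 averaged 127 ± 47.9 in drought and 23.2 ± 9.43 in control (2.43 ± 0.12). All 49 droughted plants lay above the control median for both. Bradi3g11470, Bradi3g46320 and Bradi2g32705 rose by 2.57, 2.49 and 2.59 on the log2 scale, with 49, 49 and 47 droughted plants above the control median. Among genes near 0 in every control library, Bradi3g37150 averaged 9.08 ± 7.36 in drought, at least 2.76-fold above the floor, and Bradi3g37920 averaged 4.36 ± 4.26, at least 1.33-fold above it. Of the 2919 genes that rose, 220 had at most 3 counts in every control library. Of the 2918 that fell, 184 had at most 3 counts in every droughted library. How many of all tested genes lay at that floor was not counted.

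A run of neighbouring loci on chromosome 3 rose together. Bradi3g00910 had 26.7, 158 and 856 normalized counts in the lowest, median and highest droughted plant, against 3.55, 12.9 and 49.6 in control plants (log2 fold change 3.58 ± 0.18, adjusted p = 1.26e-33). Bradi3g00920, a member of the leucine-rich repeat family, had 2.97, 44.2 and 259 in drought, against 1.07, 4.75 and 9.94 in control (3.48 ± 0.23), and 44 of 49 droughted plants lay above every control plant. The tested loci on either side, Bradi3g00900, Bradi3g00890 and Bradi3g00926, rose by 3.62, 1.74 and 2.02 on the log2 scale. Beyond them Bradi3g00878 and Bradi3g00940 did not pass (0.18 and 0.01). The outer loci were looked at after the values of the inner ones were seen. Estimates that were not whole made up 98.6% in Bradi3g00900, 75.3% in Bradi3g00910, 36.2% in Bradi3g00890, 38.0% in Bradi3g00926 and 20.6% in Bradi3g00920, so how the reads divide among these loci is uncertain, most of all for the first pair.

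Loci beside the other genes with the largest rises were mixed. The places beside Bradi3g00910 and Bradi3g00920, which neighbour each other, were left out. Of 16 other tested places, 5 held a gene that rose, 1 a gene that fell and 10 a gene that did not pass. Over all tested genes 11.9% rose and 11.9% fell. Bradi2g45050, beside Bradi2g45054, reached no more than 2 counts in control libraries and averaged 4.31 ± 3.74 in drought, at least 1.31-fold above the floor. Bradi4g40860, beside Bradi4g40850, averaged 132 ± 19.9 in drought and 97.1 ± 15.3 in control (log2 fold change 0.44 ± 0.05), while Bradi4g40840 on its other side was at 0 in 37 droughted and 47 control libraries. Bradi3g39810 and Bradi1g51250 rose by 0.42 and 0.29, and Bradi3g46330 fell by 0.92 on the log2 scale.

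The largest falls were smaller than the largest rises, and none of the 12 genes has a role in the sources used here. Bradi1g61010 had 1.11, 14.6 and 43.4 normalized counts in the lowest, median and highest droughted plant, against 8.80, 67.5 and 165 in control plants. All 49 droughted plants lay under the control median (log2 fold change -2.23 ± 0.13, adjusted p = 6.02e-29). Bradi2g16120 had 2.46, 15.5 and 96.1 in drought, against 13.2, 86.0 and 218 in control, with 48 of 49 droughted plants under the control median (-2.11 ± 0.18, adjusted p = 2.36e-18). Bradi1g45535 averaged 38.4 ± 29.9 in drought, from 6.17 to 208, against 127 ± 26.7 in control, from 57.3 to 176. For this gene 43 droughted plants lay under every control plant and 1 lay above every control plant (-1.72 ± 0.12, adjusted p = 3.96e-24).

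Some of these falls came with a wide spread in both groups. Bradi4g07380 averaged 29.2 ± 44.0 (SD) normalized counts in drought, from 1.71 to 255, against 158 ± 310 in control, from 0.989 to 2153, so that both the lowest and the highest value were those of controls (log2 fold change -2.43 ± 0.32, adjusted p = 6.61e-10). Bradi3g37680 had 1.53, 19.1 and 315 in drought, against 9.89, 119 and 1115 in control (-2.14 ± 0.28). The other 7 genes, Bradi5g13663, Bradi1g68887, Bradi4g35890, Bradi1g06696, Bradi1g17200, Bradi1g69220 and Bradi2g06150, had log2 fold changes between -1.95 and -1.69, and 46 to 49 of the 49 droughted plants lay under their control medians. Of the genes near 0 under drought, Bradi1g61020 averaged 0.491 ± 0.739 in drought and 4.24 ± 2.86 in control, and Bradi4g13920 averaged 0.593 ± 0.921 in drought and 3.95 ± 3.83 in control, which put their control means at least 1.31-fold and 1.22-fold above the floor.

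**Figure D3:**
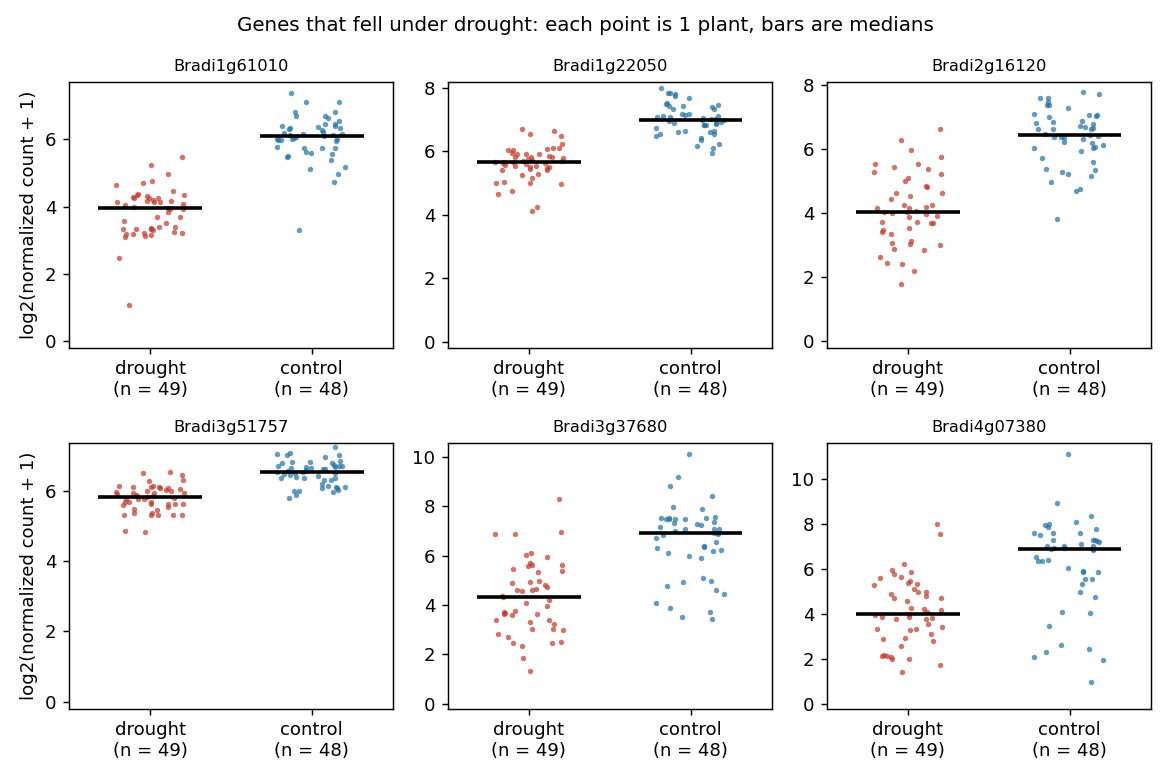
Each point is the log2(TMM-normalized count + 1) of 1 plant for 6 genes that fell, droughted plants (n = 49, red) left of control plants (n = 48, blue), with bars at the medians. All 49 droughted plants lie under the control median for Bradi1g61010, Bradi1g22050 and Bradi3g51757, and both groups are widely spread for Bradi4g07380 and Bradi3g37680.

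Neighbours of the falling genes were called in a similar mix. Of 22 tested places next to such a gene, 7 held a gene that fell, 2 a gene that rose and 13 a gene that did not pass, against 11.9% falling over all tested genes. Bradi1g61020 lies beside Bradi1g61010, and Bradi2g16110 beside Bradi2g16120 averaged 4.46 ± 2.93 normalized counts in drought and 13.6 ± 7.61 in control (log2 fold change -1.58 ± 0.17). Bradi5g13660 beside Bradi5g13663 averaged 33.3 ± 9.27 in drought and 66.8 ± 20.7 in control (-1.0 ± 0.08), and 30 of 49 droughted plants lay under every control. Bradi3g37670, Bradi1g45530, Bradi1g06700 and Bradi1g69209 had log2 fold changes of -2.26, -0.63, -0.26 and -0.99, and Bradi2g16130 and Bradi1g06691 of 0.27 and 1.05.

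Transcripts of light harvesting fell broadly but moderately. Of 48 loci held here of the list that co-expression modules for the light reactions share, 43 fell, 0 rose and 5 did not pass. Over all tested genes 11.9% fell, and 17.8% of those with a mean of 10 or more, as all 48 had. The median log2 fold change of the 48 was -0.65, and 6 fell at least 2-fold. The study drew these modules from the same plants. The mean log2 level of the 48 genes ran from -1.88 to 0.37 in drought with a median of -0.59, and from -1.15 to 1.13 with a median of 0.04 in control, so plants of the groups overlapped and 5 droughted plants lay under every control. Bradi1g16580 averaged 71.6 ± 24.3 normalized counts in drought and 146 ± 42.2 in control (-1.02 ± 0.09, adjusted p = 8.19e-19), and Bradi2g20380 averaged 45.1 ± 16.4 in drought and 92.2 ± 37.1 in control (-1.02 ± 0.11). The abundant Bradi3g26391, chosen after its values were seen, averaged 7107 ± 3197 in drought and 14498 ± 6882 in control, but 99% of its estimates were not whole. The same held for 100% of the estimates of Bradi1g25430, which had a log2 fold change of -1.28.

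Some other genes of the chloroplast also fell. All 3 loci that modules for photorespiration and the Calvin cycle share fell: Bradi4g08500, Bradi4g08800 and Bradi1g63300 had log2 fold changes of -0.72, -0.62 and -0.38. The first pair averaged 8591 ± 3318 and 6773 ± 2670 normalized counts in drought, against 14144 ± 6507 and 10385 ± 3947 in control, and none of their estimates were whole. Of the 84 plastid coding sequences, 31 (36.9%) fell, 0 rose and 53 did not pass (median log2 fold change -0.21), against 11.9% falling over all tested genes, beside the lower plastid share of counts in drought. Without plastid rows 5796 nuclear genes passed. Bradi4g31257, the chlorophyll a-b binding protein, had a log2 fold change of -0.22 ± 0.07 (adjusted p = 0.0203), with 37 of 49 droughted plants under the control median. The early light-induced protein ortholog Bradi1g55600 (ELIP2) averaged 20.4 ± 10.9 in drought and 24.5 ± 13.2 in control and did not pass (adjusted p = 0.170), with 96.9% of its estimates not whole.

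**Figure D4:**
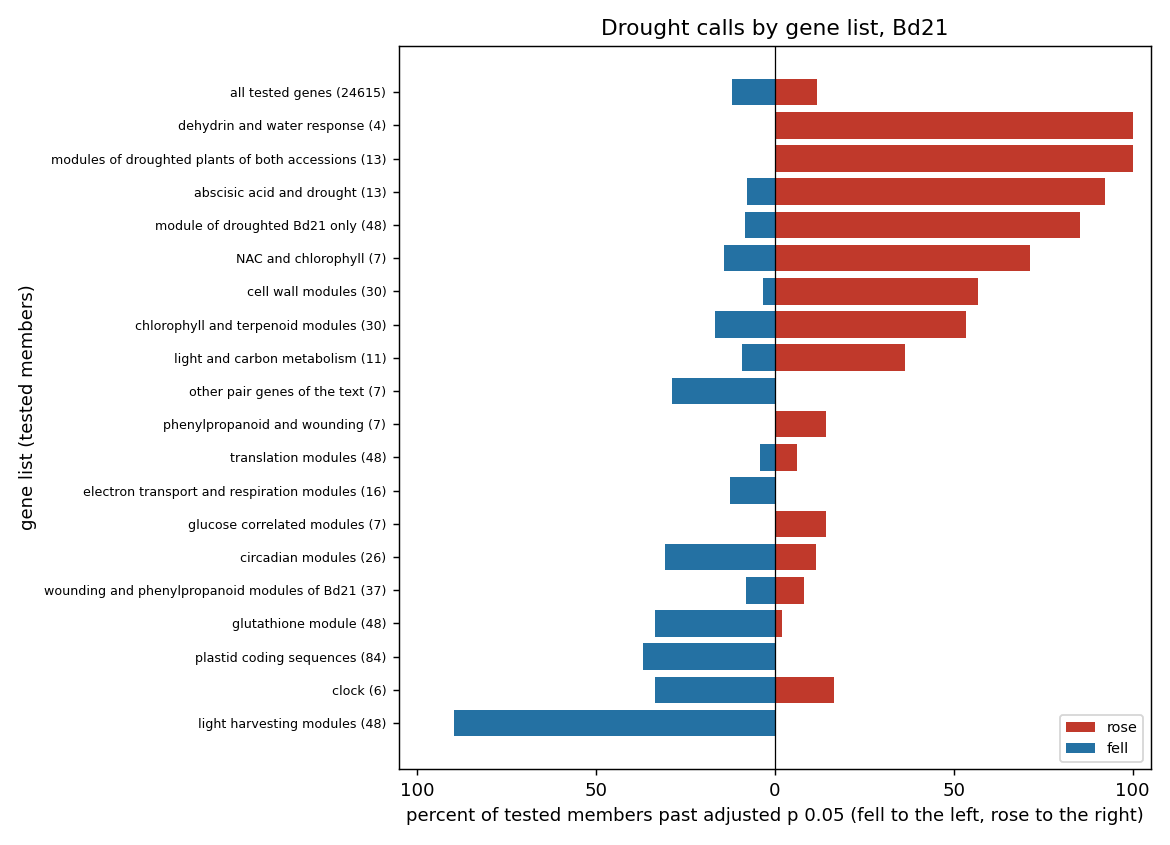
Percent of the tested members of each gene list (all but the photorespiration and glycogen lists) that rose (right, red) or fell (left, blue) at an adjusted p of 0.05, with the number of tested members in parentheses, ordered by median log2 fold change under all tested genes at the top. Lists of abscisic acid, dehydrins and droughted modules rise at 85.4% or more of their members, and light harvesting falls at 89.6%.

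Loci of light, carbon and secondary metabolism were mixed. The study's text names 11 such loci in its account of a module correlated with leaf glucose. It places the flavonol MYB factor, the flavonoid and flavanone hydroxylases and the 4-coumarate:CoA ligase in secondary metabolism. Of the 11 loci, 4 rose, 1 fell and 6 did not pass, where 11.9% of all tested genes rose and 11.9% fell. The one that fell, Bradi1g22050, encodes a 6-phosphogluconolactonase, an enzyme of the oxidative pentose phosphate pathway. It had 16.5, 49.7 and 103 normalized counts in the lowest, median and highest droughted plant, against 60.3, 127 and 252 in control plants, and 38 of 49 droughted plants lay under every control (log2 fold change -1.39 ± 0.10, adjusted p = 2.33e-23). The galactosyltransferase Bradi2g56700 rose by 1.20 ± 0.20, the flavanone 2-hydroxylase Bradi2g48450 by 0.58 ± 0.14, the endoglucanase Bradi5g14580 by 0.34 ± 0.09 and the pyruvate kinase Bradi3g33930 by 0.30 ± 0.11 on the log2 scale. The glucanotransferase Bradi1g18650, the starch metabolism locus Bradi4g15010, the flavonol MYB factor Bradi1g64687, the flavonoid hydroxylase Bradi3g04750 and the 4-coumarate:CoA ligase Bradi3g52350 had log2 fold changes between -0.15 and 0.34 and did not pass. All 4 loci that modules for glycogen metabolism share rose, by 0.26 to 0.67, against 16.5% rising among genes with a mean of 10 or more. The most abundant of the 4, Bradi1g47767, averaged 736 ± 170 in drought and 471 ± 140 in control.

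Members of the modules of droughted plants rose strongly. All 13 loci of the modules that droughted plants of both accessions share rose, each at least 2-fold (median log2 fold change 2.27), against 1.74% of all tested genes. Of 48 loci held here of the module found in droughted Bd21 alone, 41 rose, 4 fell and 3 did not pass (median 1.36). Over all tested genes 11.9% rose and 11.9% fell. These modules were drawn from the same droughted plants, so their direction is not independent evidence. Bradi4g42400 averaged 111 ± 43.6 normalized counts in drought and 22.1 ± 9.72 in control (2.32 ± 0.12), and Bradi2g17550 averaged 148 ± 58.8 in drought and 30.7 ± 18.4 in control (2.27 ± 0.14). The members that fell were Bradi2g23740, the wax locus given above, and Bradi3g50230, Bradi4g43090 and Bradi1g65300 (-1.0, -0.90 and -0.39), chosen after their values were seen. Of their estimates 96.9% in Bradi3g50230 and 62.9% in Bradi4g43090 were not whole. Bradi3g50230 carries the locus number next to that of Bradi3g50220, which rose and whose estimates were not whole to the same 96.9%.

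Of genes linked to senescence and pigments, most named NAC transcription factors rose, where 11.9% of all tested genes rose and 11.9% fell. Of 5 NAC loci that the text names, Bradi4g44000, Bradi4g02060, Bradi3g59380 and Bradi1g63600 rose by 1.16, 0.93, 0.74 and 0.47 on the log2 scale, and Bradi1g17480 did not pass (-0.13). Counts of Bradi3g59380 were low, averaging 2.86 in drought and 1.73 in control. Bradi4g02060 had 24.9, 44.9 and 75.9 normalized counts in the lowest, median and highest droughted plant, against 7.44, 24.0 and 42.0 in control plants, and all 49 droughted plants lay above the control median (0.93 ± 0.09, adjusted p = 3.32e-16). The stay-green protein Bradi4g36060, which acts in chlorophyll breakdown, rose by 0.25 ± 0.08, but had a log2 fold change of -0.07 in growth batch 4 alone, with an adjusted p of 0.923. The study names these NAC and stay-green loci as members of chlorophyll and terpenoid modules that it found only in Bd3-1. In the 30 loci of those modules, 16 rose and 5 fell in Bd21 (median 0.26), led by Bradi1g46710 at 107 ± 56.8 in drought and 24.9 ± 18.4 in control (2.11 ± 0.16) and Bradi1g19713 at 65.3 ± 19.7 in drought and 26.2 ± 11.8 in control (1.31 ± 0.11).

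Cell wall loci were divided between those that rose and those that did not pass. Of 30 loci that the cell wall modules share, 17 (56.7%) rose, 1 fell and 12 did not pass, against 11.9% rising over all tested genes and 16.5% of those with a mean of 10 or more, with a median log2 fold change of 0.34. The mean log2 level of 29 of them, those with a mean of at least 10, ran from -1.12 to 1.43 in drought with a median of 0.32, and from -1.03 to 0.85 in control with a median of 0.10, so the groups overlapped widely. Bradi1g60320 averaged 57.0 ± 25.0 in drought and 30.4 ± 12.7 in control (0.90 ± 0.12), Bradi1g68710 averaged 83.1 ± 21.2 in drought and 53.3 ± 20.3 in control (0.62 ± 0.09), and Bradi3g50570 averaged 125 ± 30.9 in drought and 88.6 ± 23.5 in control (0.48 ± 0.07). Bradi1g66720 and Bradi4g30536, the extremes of the list, were picked after their values were seen and had log2 fold changes of 1.13 and -0.41.

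Clock genes differed among themselves. The study harvested leaves in a single window around midday, so each value stands for that time of day only. Of 6 loci named by the study, 1 rose, 2 fell and 3 did not pass, where 11.9% of all tested genes rose and 11.9% fell. Bradi3g51757, an ortholog of the Arabidopsis MYB-like factor REVEILLE 6, had 27.4, 56.3 and 91.2 normalized counts in the lowest, median and highest droughted plant, against 55.0, 92.5 and 150 in control plants. All 49 droughted plants lay under the control median and 23 under every control (log2 fold change -0.72 ± 0.07, adjusted p = 4.82e-15). The pair of REVEILLE 2/7 orthologs moved in opposite directions: Bradi5g19380 rose by 0.69 ± 0.15, and Bradi1g29680 fell by 0.42 on the log2 scale (SE 0.12). Bradi1g29680 had a log2 fold change of 0.18 in growth batch 4 alone, with an adjusted p of 0.783. The orthologs of LHY or CCA1 (Bradi3g16515), LUX ARRHYTHMO (Bradi2g62067) and LNK3 (Bradi2g10880) had log2 fold changes of -0.36, -0.22 and -0.20 and did not pass. Of the 26 loci of the circadian modules 3 (11.5%) rose and 8 (30.8%) fell, among them Bradi2g50850 (-0.92), Bradi2g47540 (-0.53) and Bradi2g41590 (0.54).

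Most wounding, phenylpropanoid, translation and respiration loci did not pass, as was so for all tested genes, of which 11.9% rose and 11.9% fell. Of 7 loci that the text names for the Bd21 modules of phenylpropanoids and wounding, only the R2R3 MYB factor Bradi2g11676 passed (0.47 ± 0.11, adjusted p = 0.000594). Among the secondary metabolism loci given above for another module, the flavanone 2-hydroxylase Bradi2g48450 rose and the others did not pass. The cinnamate hydroxylase Bradi2g31510, the phenylalanine ammonia-lyase Bradi5g15830 (66.0% of estimates not whole), the F3H loci Bradi2g54090 and Bradi5g19250, the F3′H locus Bradi4g31380 and the polyphenol oxidase Bradi2g52260 had log2 fold changes between -0.50 and 0.09. In the 37 loci of the Bd21 modules for wounding and phenylpropanoids, 3 rose and 3 fell, led by Bradi3g02130 (-0.80), and the mean log2 level of 29 of them ran from -1.13 to 1.64 in drought and from -1.01 to 1.68 in control. Of 48 translation loci held here, 3 (6.25%) rose and 2 (4.17%) fell, against 16.5% rising and 17.8% falling among genes with a mean of 10 or more, as all 48 had, among them Bradi2g21770 (0.35), Bradi1g73770 (-0.30) and Bradi2g37310 (-0.31), the first with 80.4% of estimates not whole. Of 16 loci for electron transport and respiration 2 (12.5%) fell, near the share of all tested genes. They were Bradi4g23938 and Bradi1g48836 (-0.23 and -0.25), with 100% and 99% of estimates not whole. In the 48 loci held of the glutathione module 16 fell and 1 rose, led by Bradi1g53770 at 45.6 ± 14.4 in drought and 93.2 ± 28.2 in control (-1.02 ± 0.09), Bradi2g13010 (-0.64, uncertain with 55.7% of estimates not whole) and Bradi2g42260 (-0.63).

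**Figure D5:**
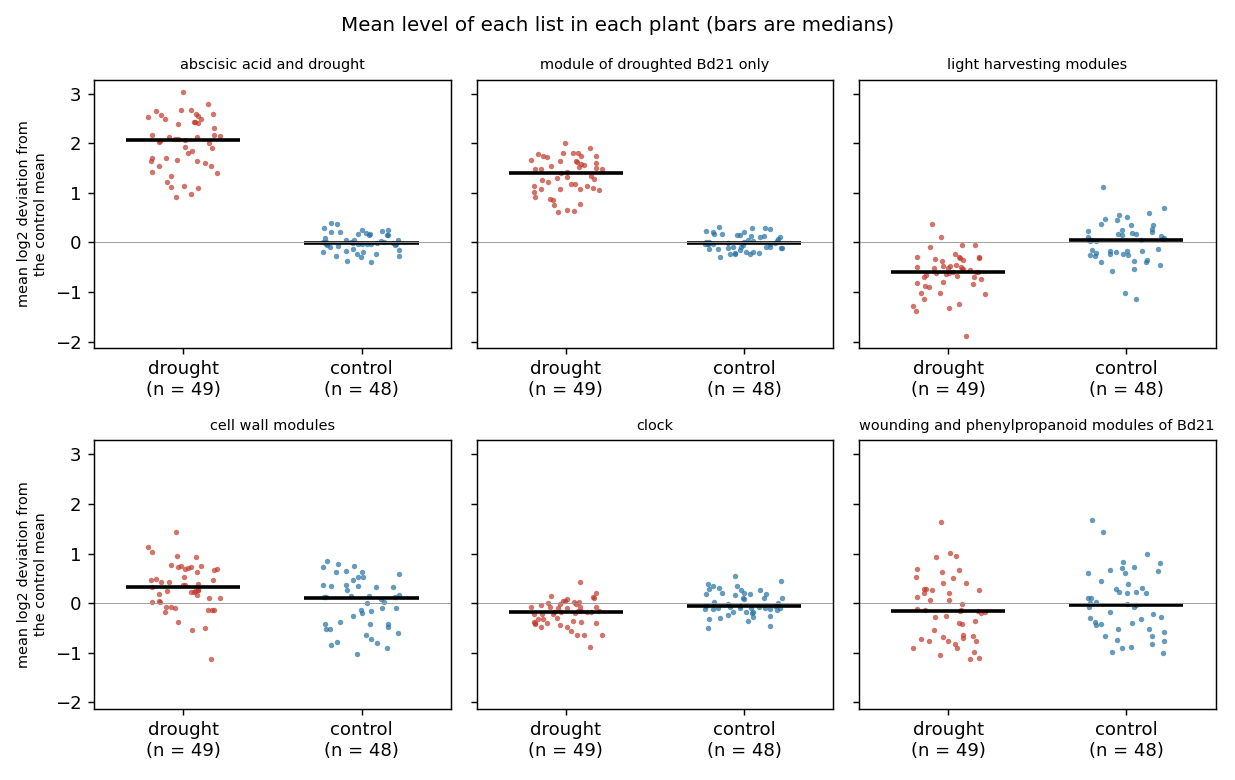
Mean log2 level over the members of each of 6 gene lists (members with a mean of 10 or more normalized counts), set against its mean in controls, with 1 point per plant, droughted plants (n = 49, red) left of control plants (n = 48, blue) and bars at the medians. The abscisic acid list and the module of droughted Bd21 do not overlap between the groups, and the other 4 lists do.

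Of 7 further loci that the study's text names as partners in gene pairs, 2 fell and 5 did not pass. Among genes with a mean of 10 or more, as all 7 had, 16.5% rose and 17.8% fell. The cell-wall invertase Bradi3g44990, which splits sucrose, averaged 63.4 ± 23.4 normalized counts in drought and 84.5 ± 34.4 in control (log2 fold change -0.41 ± 0.09), and the allene oxide cyclase Bradi1g15840 of jasmonate synthesis averaged 45.7 ± 17.8 in drought and 54.5 ± 20.7 in control (-0.26 ± 0.10). Bradi4g20520, of unknown function, ranged from 13.0 to 1402 in drought and from 7.27 to 1043 in control and did not pass (0.61 ± 0.31, adjusted p = 0.148). The jacalin-like lectin Bradi3g19730, the metallo-beta-lactamase Bradi3g45230, the serine-type endopeptidase Bradi5g18277 and the zinc transporter Bradi1g53680 had log2 fold changes of 0.38, 0.04, 0.15 and 0.08. Among 7 loci of a further set of glucose-correlated modules only Bradi1g55560 passed, at 109 ± 60.0 in drought and 48.7 ± 30.6 in control (1.14 ± 0.16), with 87.6% of its estimates not whole. The study also correlated the modules of droughted plants, given above, with leaf glucose. Of their loci held here, 13 of 13 and 41 of 48 rose.

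The spread between plants of a group was compared gene by gene. The spread of a gene was taken as the absolute deviation of each plant's log2(normalized count + 1) from its group's median. Over the 12289 genes whose mean normalized count was 10 or more, its median was 0.26 in drought and 0.27 in control. A difference in spread passed in 2 genes (0.0163%) by limma with Benjamini-Hochberg adjustment, and 661 (5.38%) had an unadjusted p under 0.05, 226 with a larger and 435 with a smaller spread in drought. Bradi4g40850 varied more among droughted plants, with a mean deviation of 1.45 in drought and 0.49 in control (adjusted p = 0.00427), beside a control level near 0, where counts leave little room to vary. Bradi4g29640 varied less, with 0.19 in drought and 0.44 in control (adjusted p = 0.0116), and averaged 26.5 ± 4.87 normalized counts in drought and 15.4 ± 5.38 in control. After library totals were thinned and after growth batch and plate were removed, 0 genes passed. Droughted plants were more spread in the lists that rose most. The study drew these lists from modules of genes that vary together among the same droughted plants, so this spread is not independent evidence. The SD of the mean log2 level was 0.53 in drought and 0.19 in control for the abscisic acid list. It was 0.36 in drought and 0.16 in control for the module of droughted Bd21, but 0.47 in drought and 0.51 in control for the cell wall list. Loci near 0 in control, such as Bradi4g40850 of the abscisic acid list, leave little room for spread there. Gene by gene, the 109 genes of this set that rose at least 2-fold had a median deviation of 0.47 in drought and 0.51 in control.

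The drought effect was also compared between the growth batches. By edgeR's quasi-likelihood test of the product of treatment and batch, 0 of 24615 genes (0%) passed, with a smallest adjusted p of 0.563, and 1191 genes (4.84%) had an unadjusted p under 0.05. The genes of smallest unadjusted p were Bradi2g11640 (2.86e-05), Bradi3g45740 (4.57e-05) and Bradi1g52011 (0.000113). The 109 genes with a mean of 10 or more that rose at least 2-fold over all plants had median log2 fold changes of 1.42, 1.57, 1.26 and 1.06 in growth batches 1 to 4, and the 85 that fell had medians of -1.33, -1.50, -1.23 and -0.87. Over all batches Bradi1g52011 averaged 67.1 ± 20.1 normalized counts in drought and 112 ± 29.1 in control (log2 fold change -0.74 ± 0.08). Its log2 fold change was -0.75, -1.18, -0.68 and -0.17 in growth batches 1 to 4. The mean log2 level of the abscisic acid list in droughted plants was 2.25, 2.21, 1.73 and 1.64 in the same batches, against 0.04, -0.03, -0.0021 and -0.01 in their controls.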

How the data were processed

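RNA was measured by 3′ digital gene expression, which counts a tag near the end of each transcript. Per the study's methods and the submitters' processing notes, the authors trimmed reads (Trimmomatic 0.39, cutadapt 2.10), aligned them with Bowtie2 2.4.0 to Bd21 primary transcripts and plastid sequences, collapsed molecular identifiers and deposited expected counts from RSEM 1.3.3, which divides reads that match several transcripts. The deposited expected counts were not normalized. Of estimates above 0, 86.4% were whole numbers within 0.005, and genes with over 50% of estimates not whole (2862 of those tested) are called uncertain. Columns were matched to samples by the sample description, and the 117 columns of Bd3-1 were not used. No library pair was identical. Growth batch (4), plate (3) and extraction batch (16) came from the study's sample sheet. The sheet heads the first of these Experiment Batch, which was taken here as the growth batch of the study's methods.

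Counts were rounded, and 24615 of 32523 rows with a count above 0 in more than 10 of the 97 plants were tested with edgeR 4.0.16 (quasi-likelihood F-test, TMM factors, no covariate) in R 4.3.3, with Benjamini-Hochberg adjustment and a threshold of 0.05. Standard errors were derived from the F statistic. Spread was tested with limma 3.58.1 on log2(normalized count + 1). Group differences of library values and component scores (RLE factors, pseudocount 1) used 100000 permutations in scipy 1.17.1. A group with at most 3 counts in every library was set at that floor, which covers counting error only. Labels do not say how plants share trays or chambers, so p-values measure the spread between these plants. Numbers of replicates were given per group and were not taken to pair plants. The fits were also run on simulated counts, with changes placed only in genes with a mean count of at least 10. In the simulated drought effect every gene had the same scatter between plants beyond counting error. No outcome is given here, and these runs are not used as support. DESeq2 1.42.0, limma-voom, other filters, scalings, thinning and batch terms were alternatives.

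The members and gene lists were chosen with earlier results of these data known. Lists came from the study's text and, in part, from its module tables. Named genes were the 12 largest rises and falls among called genes with a mean of at least 10, up to 5 genes near 0 in a group, loci that the text names, the 3 called module members of smallest p, genes of the spread and batch tests, and loci beside the first set. Lists by key words, marker genes by name and promoter motifs were not run, since the reference table used here matched 0 of these loci.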

Additional observations from a re-analysis of the deposited data

How the results depend on the processing

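The count of called genes stayed within 1.5 times 5837 under every alternative over all plants, from 4479 (libraries thinned to the lowest total) to 5989 (growth batch and plate as covariates), with 5820 by DESeq2, 5683 by limma-voom and 5757 without the deepest library. Of the calls, 5595, 5399 and 5583 were shared with these, each with the same sign. Genes changed at least 2-fold numbered 721, against 194 with edgeR's filterByExpr and 197 with a mean of at least 10, where fewer low genes were tested, and 420 by limma-voom. Within growth batches 1 to 4 alone, with fewer plants, 1979 (937 up, 1042 down), 2768 (1315 up, 1453 down), 825 (406 up, 419 down) and 621 (305 up, 316 down) genes passed, and 325 and 180 changed at least 2-fold in batches 3 and 4. Differences in spread passed in 0 genes after thinning, and 0 after growth batch and plate were removed, where the cause was not tested, and in 0 with a mean of at least 50, which left out both genes before the test.

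With the replicate number as a block over replicates 1 to 48, 5684 genes passed (2781 up, 2903 down, 603 at least 2-fold). The numbers were not taken to pair plants, since only 26 of 48 pairs correlated above 0.1. The median r was 0.12 for plants of the same number and -0.00736 for plants of other numbers, and 7 droughted plants correlated best with the control of the same number, a hint of shared structure that comes from the data and not from the design. Under the block, 3 uncalled genes turned direction: Bradi3g04750 (0.00385), Bradi3g52350 (-0.0063) and Bradi5g19250 (-0.175).

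Among the genes named in the text, the other changes of direction, given as log2 fold changes, were of genes that did not pass in the reported test, except Bradi1g29680 (0.177) and Bradi4g36060 (-0.073) in growth batch 4 alone. That batch also turned Bradi3g16515 (0.484), Bradi2g10880 (0.0898), Bradi2g54090 (0.0956), Bradi3g45230 (-0.124), Bradi5g15830 (-0.0657) and Bradi2g52260 (-0.0538). Batch 1 alone turned Bradi2g31510 (0.0356), Bradi2g52260 (-0.122), Bradi3g52350 (-0.104), Bradi5g15830 (-0.0104) and Bradi5g19250 (-0.59). Batch 2 alone turned Bradi3g04750 (0.262), Bradi3g52350 (-0.00765), Bradi4g31380 (0.034), Bradi5g15830 (-0.0426) and Bradi5g19250 (-0.247). Batch 3 alone turned Bradi1g53680 (-0.0161), Bradi2g11640 (0.31), Bradi2g31510 (0.17), Bradi3g04750 (0.0938) and Bradi3g45230 (-0.0632). Bradi3g04750 was 0.00547 with growth batch and plate, 0.0435 with extraction batch added, 0.0256 by limma-voom, 0.00662 by DESeq2 and 0.0485 after thinning. Bradi5g19250 was -0.0453 with growth batch and plate, -0.207 with extraction batch added and -0.307 by limma-voom. Of genes with a mean under 1 normalized count 7.33% passed, and whether depth sets this share was not tested.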
